A study of Mus musculus with 8 samples.

Results

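The IL-6, IL-10 and IL-12 cytokine genes were followed in mouse macrophages, with the receptor chains of IL-6 and IL-10. The 8 genes were chosen by name as Il6, Il10, Il12a, Il12b, Il27, Ebi3, Il6ra and Il10ra. Probe sets that the platform annotation gives to them were found for 7 of the 8, out of 12394 genes measured, and they numbered 11. Il27 is not analysed here. Il10ra had 3 probe sets, Il12b and Il6ra had 2 each, and the others had 1.

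The cells were macrophages grown from bone marrow, and total RNA went onto 8 Affymetrix arrays, 1 for each of 8 groups. CD14-deficient cells (Cd14-/- on C57BL/6) were taken at 0, 6 and 24 h of lipopolysaccharide (LPS), a bacterial outer membrane component that macrophages sense through CD14 and the TLR4 complex. Wild-type C57BL/6 cells were given LPS together with EGTA, a chelator of calcium outside the cell, for 6 or 24 h, and wild-type cells without EGTA were taken at 0, 6 and 24 h of LPS. The arrays written here as 0 h are cultures without LPS that were harvested 24 h after plating, so in the 6 h comparisons LPS and time in culture cannot be told apart. Mice were 6 to 8 weeks old, all marrow was cultured for 7 days with M-CSF, the growth factor that turns marrow cells into macrophages, and LPS was given at 1 µg/ml. The labels call it smooth LPS for wild-type cells and only LPS for CD14-deficient cells, and they give 2 mM EGTA for the 24 h culture and no concentration for the 6 h culture. The labels do not state how many mice gave each culture. No array held EGTA without LPS. According to the series' design text, the conditions were set against each other to single out the calcium-dependent part of the LPS response.

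These cytokines pass signals between immune cells. IL-6 drives acute-phase and lymphocyte responses through IL-6 receptor alpha (Il6ra) and the shared chain gp130 (Il6st). IL-10 restrains macrophage activation through a receptor of the Il10ra and Il10rb products, and both cytokines signal through JAK kinases to the transcription factor STAT3. IL-12, which directs T cells and NK cells towards interferon gamma, is a pair of the Il12a and Il12b products, the Il12b product also forms IL-23, and EBI3 pairs with the Il27 product to form IL-27. LPS-activated macrophages are a known source of all of these.

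Each group had 1 array, so no difference below has a replicate check, no p-value is given, and the number of arrays limits the precision. Intensities were quantile normalized. A floor was set at 38.4, the 40th percentile of the whole table, and a gene was compared only if 1 of the 2 arrays was above the median intensity of 88.2. Where 1 array is at the floor the fold is given as a bound, and values at the floor have no order. Trimmed mean intensities of the deposited arrays ran from 314 to 527, and RNA integrity numbers from 9.3 to 9.7. Cd14 itself was at the floor on the 3 CD14-deficient arrays and between 3849 and 12515 on the 5 wild-type arrays. All 7 macrophage markers measured beside Cd14 exceeded 88.2 on every array, while all 4 B cell markers were at the floor on every array. In RNA from whole cultures, fewer cells that express a gene and less RNA per cell cannot be told apart.

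Il6 went with LPS in every condition and was not seen above the floor without it. Its intensity in CD14-deficient cells was at the floor at 0 h, 2510.2 at 6 h and 131 at 24 h. With LPS and EGTA it was 977 at 6 h and 349.7 at 24 h. In wild-type cells with LPS alone it was at the floor at 0 h, 1538 at 6 h and 816 at 24 h. All 6 LPS arrays stood above both unstimulated arrays, and the CD14-deficient cells held both the highest and the lowest of the 6 LPS values.

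Il10 was already measured above the floor before LPS in both genotypes. Its intensity in CD14-deficient cells was 46.9 at 0 h, 684 at 6 h and 97.1 at 24 h. With LPS and EGTA it was 1894 at 6 h and 813 at 24 h. In wild-type cells with LPS alone it was 92.6 at 0 h, 2223 at 6 h and 1107 at 24 h. At each of the 3 times the CD14-deficient array was the lowest, and by 24 h it was close to the wild-type level without LPS.

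Il12b, which encodes the subunit that IL-12 and IL-23 share, was dimmer. On its brighter probe set it was at the floor at 0 h, 627 at 6 h and 235 at 24 h in CD14-deficient cells. With LPS and EGTA it was 315 at 6 h and 62.6 at 24 h. In wild-type cells with LPS alone it was at the floor at 0 h, 307 at 6 h and 63.4 at 24 h. The CD14-deficient array was the highest at 6 h and at 24 h. The other probe set gave 535 and 269.6 at 6 and 24 h in CD14-deficient cells, 299 and 70.0 with EGTA, and 193 and 40.2 in wild type with LPS alone. Both probe sets thus put the CD14-deficient arrays highest, but they differed on EGTA, which is described below. Il12a, the partner subunit of IL-12, was below the floor on all 8 arrays, with no value over 22.3 before the floor was set.

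Ebi3 was above 88.2 on all 8 arrays. It stood at 603, 1994 and 2434 at 0, 6 and 24 h of LPS in CD14-deficient cells, at 2926 and 2785.5 at 6 and 24 h with EGTA, and at 1181, 2876 and 3386 at 0, 6 and 24 h in wild type. It was high at both LPS times in every condition, unlike Il6, Il10 and Il12b, which were lower at 24 h than at 6 h in every condition.

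Of the receptor chains, Il10ra was measured well by 1 probe set, while its other 2 did not exceed 46.0 on any array. That probe set gave 94.2, 317 and 297 at 0, 6 and 24 h in CD14-deficient cells, 323 and 397 at 6 and 24 h with EGTA, and 143, 340.3 and 415 in wild type. Il6ra was dim throughout. Its brighter probe set on average ran from 53.2 to 92.0 over the 8 arrays, and the other from the floor to 97.6. The other gave 80.5, 54.5 and 94.2 at 0, 6 and 24 h in CD14-deficient cells. With EGTA it was at the floor at 6 h and 88.2 at 24 h, and in wild type it gave 81.4, 43.6 and 97.6. Neighbouring levels that differ by less than 1.5 times are not ranked here, since the spread between cultures is unknown.

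**Figure D1:**
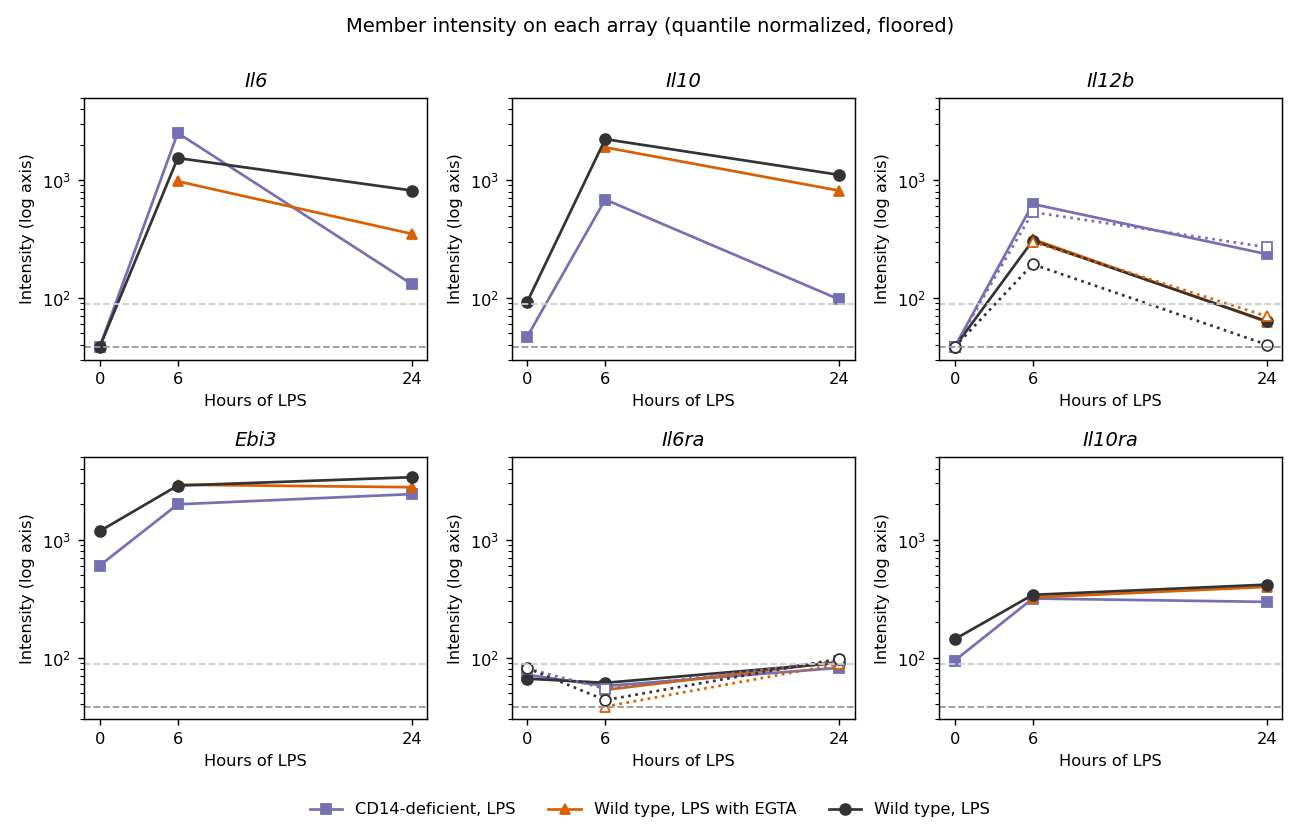
Intensity (log axis) of 6 members against hours of LPS, with 1 array per point, for CD14-deficient cells (squares), wild-type cells with LPS and EGTA (triangles) and wild-type cells with LPS (circles). Open symbols and dotted lines are the other probe set of Il12b and Il6ra, the dark dashed line is the floor of 38.4 and the light one the level of 88.2. CD14-deficient cells had the lowest Il10 and the highest Il12b at 6 and 24 h, and their Il6 crossed from 2510.2 at 6 h to 131 at 24 h.

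The LPS response was taken as the difference from the unstimulated array of the same genotype. At 6 h, 5 of 5 members bright enough to compare had increased 2-fold or more in CD14-deficient cells, against 10.3% of all 6929 genes compared. With EGTA in wild-type cells it was also 5 of 5, against 11.3% of 6975 genes, and in wild type with LPS alone 5 of 5, against 10.5% of 6936 genes. As deposited, the count with EGTA was 3, with Ebi3 at 0.60 and Il10ra at 0.17 beside an all-gene median of -0.97, and relative to that median they stood at 1.57 and 1.14. The median log2 differences of the members were 3.87, 3.04 and 3.00 in these 3 conditions, and those of all genes were -0.13, -0.11 and -0.12. Il6ra was compared at 6 h in none of them, being too dim. Il6 and Il12b were at the floor without LPS, so they could be compared only through their LPS arrays. Any gene at the floor of 38.4 on 1 array and above 88.2 on the other is at least 2-fold different by construction. The calls of Il6 and Il12b were thus fixed by the filter, and the same rule acts on the all-gene shares.

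Il6 was at the floor without LPS, so its response has only a lower bound, as has that of Il12b. At 6 h Il6 was at least 65.4-fold higher in CD14-deficient cells, at least 25.5-fold with EGTA and at least 40.1-fold in wild type with LPS alone. Il10 was 14.6-fold, 20.5-fold and 24.0-fold higher in the same 3 conditions. In wild type with LPS alone that was rank 8 by increase among the 6808 genes above the floor on both arrays. Il12b was at least 16.3-fold, 8.22-fold and 7.99-fold higher. Ebi3 was 3.31-fold, 2.48-fold and 2.44-fold higher, and Il10ra 3.36-fold, 2.26-fold and 2.38-fold. In CD14-deficient cells the 6 h responses of Il6, Il12b, Ebi3 and Il10ra were thus larger than in wild type, by log2 differences of 0.71, 1.03, 0.44 and 0.50, and that of Il10 was smaller, at -0.72. Ebi3 and Il10ra started lower there, which enters their responses, while Il6 and Il12b started at the floor in both genotypes, so that the difference is that of the LPS levels alone.

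At 24 h the responses had spread apart. In CD14-deficient cells 5 of 5 members were at least 2-fold higher, against 8.29% of 6908 genes. With EGTA 4 of 5 were, against 10.9% of 6987 genes, and in wild type with LPS alone 4 of 5, against 10.6% of 6965 genes. The 5 compared were not the same genes. Il12b was compared only in CD14-deficient cells, where its call, like that of Il6 in every condition, was fixed by the filter. Il6ra was compared only in the other conditions, and was the member within 2-fold there, at 0.48 with EGTA and 0.45 in wild type. Over these unlike sets the member median was 1.77 in CD14-deficient cells, 1.48 with EGTA and 1.54 in wild type with LPS alone. The all-gene medians were -0.04, -0.07 and -0.07. Il6 was at least 3.41-fold higher in CD14-deficient cells, at least 9.11-fold with EGTA and at least 21.3-fold in wild type. Il10 was 2.07-fold, 8.78-fold and 12.0-fold higher. As deposited, Il10 in CD14-deficient cells stood at 0.80, and Il10ra at 0.92 with EGTA and 0.81 in wild type, so these calls were lost. Relative to the all-gene medians they stood at 1.00, 1.41 and 1.47. Il12b, at least 6.13-fold higher in CD14-deficient cells, was too dim to compare in the other conditions at 24 h, at 62.6 with EGTA and 63.4 in wild type.

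**Figure D2:**
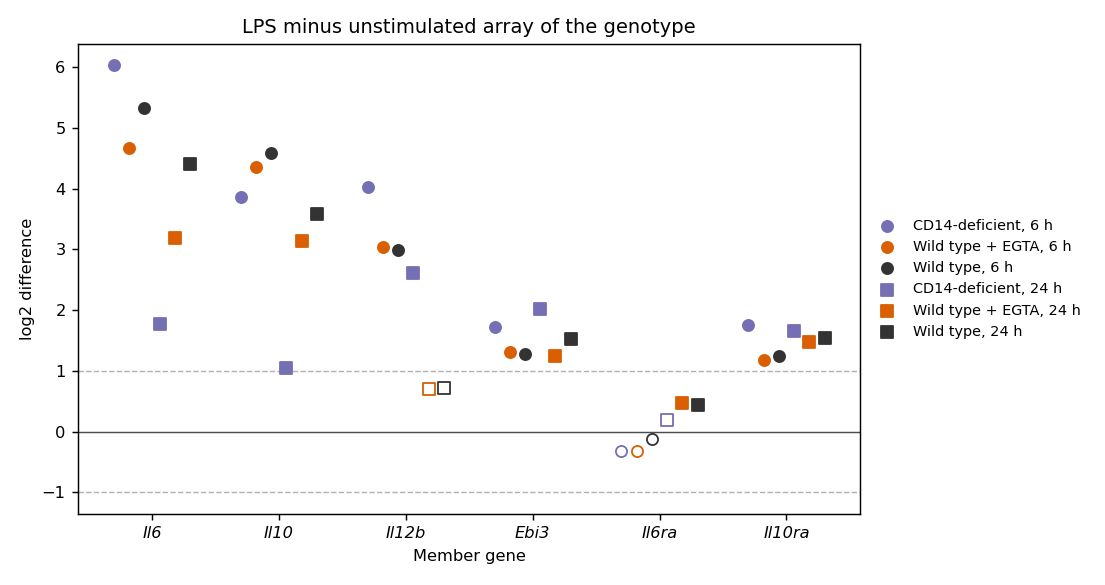
Log2 difference of each LPS array from the unstimulated array of its genotype (y) for 6 member genes (x), at 6 h (circles) and 24 h (squares), in CD14-deficient cells (purple), wild-type cells with EGTA (orange) and wild-type cells with LPS alone (black). Open symbols are genes too dim to be compared, dashed lines mark 2-fold, and values of Il6 and Il12b are lower bounds. Il6 in CD14-deficient cells stood at 6.03 at 6 h and at 1.77 at 24 h.

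The promoter sequences of Il6 and Il12b are shown because the deposited arrays put both genes among the LPS-induced ones at 6 h and apart in CD14-deficient cells at 24 h. They are the 250 bases before the annotated start in RefSeq, build GRCm38.p6, on the plus strand, at chr5:30012864-30013113 for Il6 and chr11:44399813-44400062 for Il12b. Capitals mark matches, on either strand, to AP-1 (TGANTCA), C/EBP (TTGNNCAA) and the NF-kB consensus.
Il6: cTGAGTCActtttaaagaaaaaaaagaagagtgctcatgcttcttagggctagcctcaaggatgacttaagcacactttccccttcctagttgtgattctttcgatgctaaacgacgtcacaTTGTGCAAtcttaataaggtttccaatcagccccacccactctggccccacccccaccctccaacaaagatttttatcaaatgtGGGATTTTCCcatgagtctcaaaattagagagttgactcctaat
Il12b: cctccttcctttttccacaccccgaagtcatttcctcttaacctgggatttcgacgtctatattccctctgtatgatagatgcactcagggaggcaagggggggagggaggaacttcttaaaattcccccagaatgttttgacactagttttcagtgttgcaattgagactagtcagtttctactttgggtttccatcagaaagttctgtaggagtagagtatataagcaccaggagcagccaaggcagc
The Il6 window held an AP-1 match that starts 249 bases before the start site, a C/EBP match that starts 128 bases before it and an NF-kB match that starts 44 bases before it. The Il12b window held no match to these 3 patterns. Sites that depart from the patterns were not searched for, so this does not show that the window lacks such sites. Over 32851 promoter windows of this length, AP-1 matches were found in 6.75%, C/EBP matches in 5.65% and NF-kB matches in 3.90%. The NFAT core GGAAA was found 3 times in each of the 2 windows, once in Il6 within the NF-kB match, and it occurs in 55.6% of all windows. The Ebi3 window held 1 NF-kB match and 1 NFAT core. The windows of Il12a and Il6ra held no match to any of these motifs. Il10 was also induced at 6 h and apart in CD14-deficient cells at 24 h, but no promoter entry was available for it. Promoter sequences of the other members are not printed. These letters are a description of the windows and not evidence of binding.

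Il10 and, on its brighter probe set, Il12b were at least 2-fold lower at 24 h than at 6 h of LPS in every condition. Il6 was so in CD14-deficient cells and with EGTA and stood at -0.91 in wild type, and Ebi3 and Il10ra were within 2-fold in each. In CD14-deficient cells 3 of 5 members were at least 2-fold lower at 24 h than at 6 h, against 6.16% of 6831 genes. With EGTA 3 of 6 were lower, against 6.14% of 6887 genes, and in wild type with LPS alone 2 of 6, against 5.56% of 6835 genes. Il6 was 19.2-fold lower at 24 h in CD14-deficient cells, 2.79-fold lower with EGTA and 1.89-fold lower in wild type. In CD14-deficient cells that was rank 2 by decrease among 6755 genes above the floor on both arrays. Il10 was 7.05-fold, 2.33-fold and 2.01-fold lower in these conditions, and Il12b 2.66-fold, 5.04-fold and 4.84-fold lower. The other Il12b probe set was 1.98-fold, 4.27-fold and 4.81-fold lower, so in CD14-deficient cells it fell just short of 2-fold. Il6ra was within 2-fold on its brighter probe set where compared. On its other probe set it was 1.73-fold higher at 24 h in CD14-deficient cells, at least 2.30-fold with EGTA and 2.24-fold in wild type. Its probe sets thus disagree on the 2-fold call, and its values are dim. The 2-fold calls near the threshold moved with the scaling. In wild type Il10 stood at -0.99 with equal medians, and Il6 passed 2-fold as deposited, where the all-gene median was -0.50. With EGTA Il10 stood at -0.85 as deposited, beside an all-gene median of 0.47. The log2 change between 6 and 24 h in CD14-deficient cells minus that in wild type was -3.35 for Il6, -1.81 for Il10 and 0.86 for Il12b, so the decrease of Il6 and Il10 was larger there and that of Il12b smaller. With EGTA minus without, the same difference was -0.57 for Il6, -0.21 for Il10 and -0.06 for Il12b.

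Before LPS, CD14-deficient cells had lower Il10, Ebi3 and Il10ra than wild type, each just short of 2-fold or less. The log2 differences were -0.98 for Il10, -0.97 for Ebi3 and -0.60 for Il10ra. None of 3 members compared reached 2-fold, against 4.60% of 6782 genes. The central 95% of genes lay between -1.23 and 0.85, which holds all 3 values. With the arrays scaled to equal medians Il10 stood at -1.07 and passed 2-fold. The CD14-deficient level of Il10, 46.9, lay close to the floor, so its difference is imprecise.

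At 6 h of LPS the CD14-deficient array had less Il10 and more Il12b than the wild-type array. Il10 was 3.25-fold lower, rank 49 by decrease among 6725 genes above the floor on both arrays. Il12b was 2.04-fold higher, or 2.77-fold on its other probe set. Il6 stood at 0.71, Ebi3 at -0.53 and Il10ra at -0.10, all within 2-fold. Of 5 members compared 1 was higher and 1 lower, against 2.53% of all genes higher and 3.08% lower. With intensities as deposited Il12b stood at 0.79, beside a median of -0.27 over all genes, and so was not 2-fold higher.

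At 24 h of LPS the same split was wider, and Il6 was also lower. Il10 was 11.4-fold lower in CD14-deficient cells, rank 5 by decrease among 6765 genes above the floor on both arrays, and Il6 was 6.23-fold lower. Il12b was 3.71-fold higher, or 6.71-fold on its other probe set, rank 30 by increase on the first. The wild-type level of Il12b at this time, 63.4, lay close to the floor, so that fold is imprecise, and with the floor at the 60th percentile the log2 difference was 0.42. Ebi3, Il10ra and Il6ra stood at -0.48, -0.49 and -0.14. Of 6 members compared 1 was higher and 2 lower, against 5.21% of all genes higher and 6.21% lower. All 3 of these differences kept their direction and exceeded 2-fold as deposited and with equal medians. Il6 was lower by log2 differences of -2.22 and -2.73 under these scalings, Il10 by -3.15 and -3.66, and Il12b was higher by 2.41 and 1.90. The median of all genes as deposited was 0.43, and relative to it Il6 stood at -2.64, Il10 at -3.58 and Il12b at 1.98.

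Markers of other cells were mostly at the floor on these arrays. Of 4 fibroblast markers, all were at the floor on the CD14-deficient array at 24 h, and 2 were above it on the wild-type array, Dcn at 192 and Col1a2 at 48.5. Their summed intensity was 153 and 317, with the CD14-deficient array first, and no other array exceeded 173. The dendritic cell list had 1 of 4 markers above the floor on any array, Itgax, which some macrophages also carry. Itgax stood at 406, 264 and 207 at 0, 6 and 24 h in CD14-deficient cells and at 299, 144 and 147 in wild type. Flt3, a dendritic cell growth factor receptor on that list, was at the floor on all 8 arrays. Of 6 neutrophil markers, S100a8 stood at 90.6, 236 and 507 at 0, 6 and 24 h in CD14-deficient cells and at 138, 99.7 and 432 in wild type, and Camp exceeded 38.6 only on the CD14-deficient array at 24 h, at 107. Their summed intensity at 24 h was 768 in CD14-deficient cells, against 624 in wild type. Of 5 T cell and NK cell markers, at least 4 were at the floor on every array. Their summed intensity at 24 h was 218 in CD14-deficient cells, 289 with EGTA and 226 in wild type. The part of these cells in the Il6, Il10 and Il12b differences was not tested.

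EGTA left this family within 2-fold of LPS alone at 6 h. Log2 differences were -0.65 for Il6, -0.23 for Il10, 0.04 for Il12b, 0.02 for Ebi3 and -0.08 for Il10ra. None of 5 members was 2-fold different, against 0.816% of 6740 genes, so finding none is not particular to this family. The other Il12b probe set stood at 0.63, so the probe sets of that gene disagree. Il6 had the largest difference of the 5 and lay below the central 95% of genes, -0.58 to 0.60, at rank 115 by decrease among 6731 genes above the floor on both arrays. As deposited, the median of all genes was -0.78 and Il6 stood at -1.48, or -0.70 relative to that median.

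At 24 h of LPS the EGTA array had 2.33-fold less Il6 than the array with LPS alone. It was the only 1 of 5 members that was at least 2-fold lower, against 1.11% of 6754 genes, at rank 31 by decrease among 6742 genes above the floor on both arrays. Il10 stood at -0.45, Ebi3 at -0.28, Il10ra at -0.06 and Il6ra at 0.03. Il12b was too dim on both arrays to compare. The log2 difference of Il6 was -1.12 as deposited and -1.27 with equal medians. The EGTA array at 24 h also had the lowest yield of labelled cRNA, 31.4 µg against 52 µg for LPS alone, and its part in the difference was not tested. On the EGTA array Dcn was at 58.2, against 192 on the wild-type array with LPS alone. The summed T cell and NK cell markers stood at 289 against 226 on the same arrays. Neither was tested for a part in the difference.

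The EGTA and CD14-deficient arrays were set against the same wild-type LPS arrays. Side by side, Il6 stood at 0.71 in CD14-deficient cells and -0.65 with EGTA at 6 h, and at -2.64 and -1.22 at 24 h. Il10 stood at -1.70 and -0.23 at 6 h and at -3.51 and -0.45 at 24 h. Il12b stood at 1.03 and 0.04 at 6 h.

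**Figure D3:**
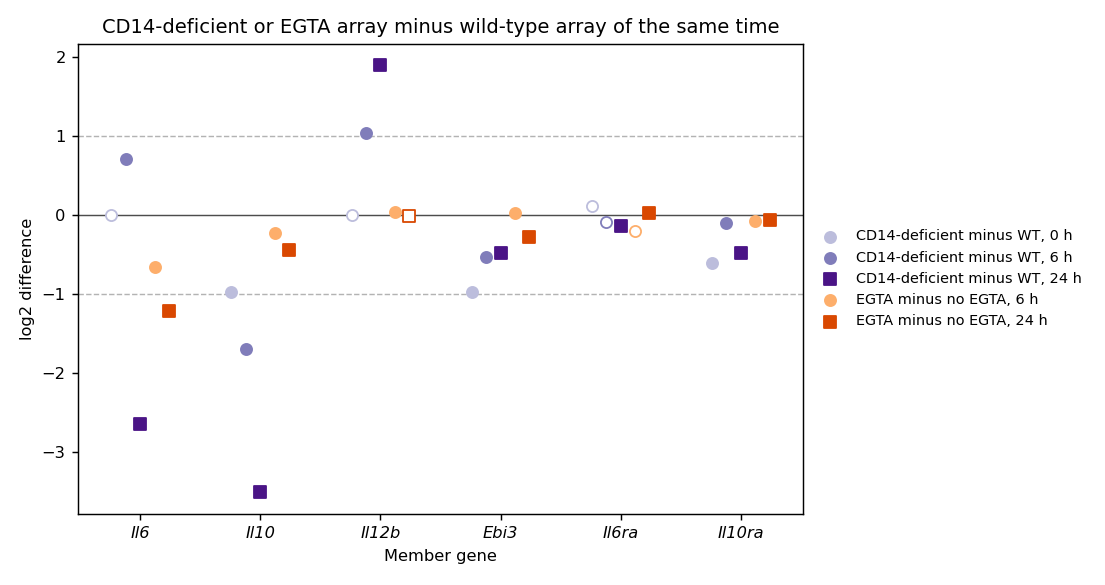
Log2 difference (y) of 6 member genes (x) between the CD14-deficient and the wild-type array at 0, 6 and 24 h of LPS (purple, light to dark) and between arrays with and without EGTA at 6 and 24 h (orange, light to dark). Open symbols are genes too dim to be compared and dashed lines mark 2-fold. At 24 h Il10 and Il6 lay at -3.51 and -2.64 in CD14-deficient cells and Il12b at 1.89, while with EGTA only Il6, at -1.22, passed 2-fold.

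The remaining genes of these pathways were taken from lists. None of 5 other IL-6 and IL-12 family ligands measured (Il11, Lif, Clcf1, Ctf1 and Il23a) and neither of 2 IL-10 family ligands (Il20 and Il24) was bright enough to compare in any comparison. Of 8 receptor chains measured, 3 were compared after LPS. Il12rb1, a chain of the IL-12 and IL-23 receptors, was 3.31-fold higher in wild type at 6 h of LPS. Set against wild type, CD14-deficient cells had at least 3.33-fold less Il12rb1 at 6 h, at the floor against 128, and 3.29-fold less at 24 h. Il6st, which encodes gp130, and Il10rb were within 2-fold of wild type with LPS alone in CD14-deficient cells and with EGTA at both times. Set against its own unstimulated array, Il6st in CD14-deficient cells was 2.46-fold lower at 6 h and 2.21-fold lower at 24 h. Il6st was chosen after its values were seen.

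At 6 h of LPS in wild type the increase reached 2-fold for 3 of 4 JAK and STAT genes, with Jak2 at 14.6-fold, Stat3 at 5.09-fold and Tyk2 at 2.02-fold, beside the 10.5% of all genes given above. Jak1, chosen after its value was seen, stood at 0.25. All 4 genes of the SOCS family, which encode feedback inhibitors of JAK signalling, were higher, with Socs3 at 18.8-fold. In CD14-deficient cells at 24 h of LPS 2 of 4 JAK and STAT genes were at least 2-fold lower than in wild type, Tyk2 (2.14-fold) and Stat3 (2.08-fold), with a list median of -0.89, beside 6.21% of all genes. In the same comparison 3 of 4 SOCS genes were lower, with a median of -1.46 beside 0.02 over all genes. Socs2 was at least 5.68-fold and Socs1 3.60-fold lower, and Socs3, chosen after its value was seen, was 2.10-fold lower. At 6 h, where 3.08% of all genes were lower, Socs2 and Socs1 were 4.97-fold and 2.38-fold lower and Socs3 stood at -0.13.

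Genes that IL-10 or STAT3 is known to induce in macrophages were lower in 2 of 7 at 24 h in CD14-deficient cells and higher in none, with a median of -0.67, against 6.21% and 5.21% of all genes. They were Nfil3 (4.30-fold), a transcription factor gene, and Etv3 (3.02-fold), a transcriptional repressor gene. At 6 h Etv3 alone was 2-fold lower, at 2.12-fold. Before LPS Il1rn, which encodes the IL-1 receptor antagonist, was 3.68-fold lower in CD14-deficient cells. Other signals also control these genes.

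Regulators of the member cytokines followed no single direction at 6 h, with 2 of 14 higher and 1 lower in CD14-deficient cells, against 2.53% and 3.08% of all genes. Cebpd, a C/EBP transcription factor gene, was 2.54-fold higher and Bhlhe40, which encodes a repressor of Il10, 2.30-fold lower, and Zc3h12a, which encodes an RNase that degrades Il6 mRNA and was chosen after its value was seen, was 2.15-fold higher. At 24 h 4 of 15 were lower and 1 higher, with a median of -0.61, against 6.21% and 5.21% of all genes. Arid5a, which encodes a protein that stabilizes Il6 mRNA, was 3.27-fold lower. Zfp36, which encodes a protein that promotes the decay of cytokine mRNAs, was 2.80-fold lower. Irf1, Rel and Irf8, transcription factor genes for Il12b, were chosen after their values were seen, and stood at -1.40, -1.19 and 1.12. With EGTA none of 5 JAK and STAT, 4 SOCS, 7 IL-10 and STAT3 responsive or 14 regulator genes compared was 2-fold different at 6 h, and none of 4, 4, 7 and 15 at 24 h. Of all genes compared, 0.816% were 2-fold different with EGTA at 6 h and 2.13% at 24 h. Finding none in lists of this size is therefore not particular to these genes.

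**Figure D4:**
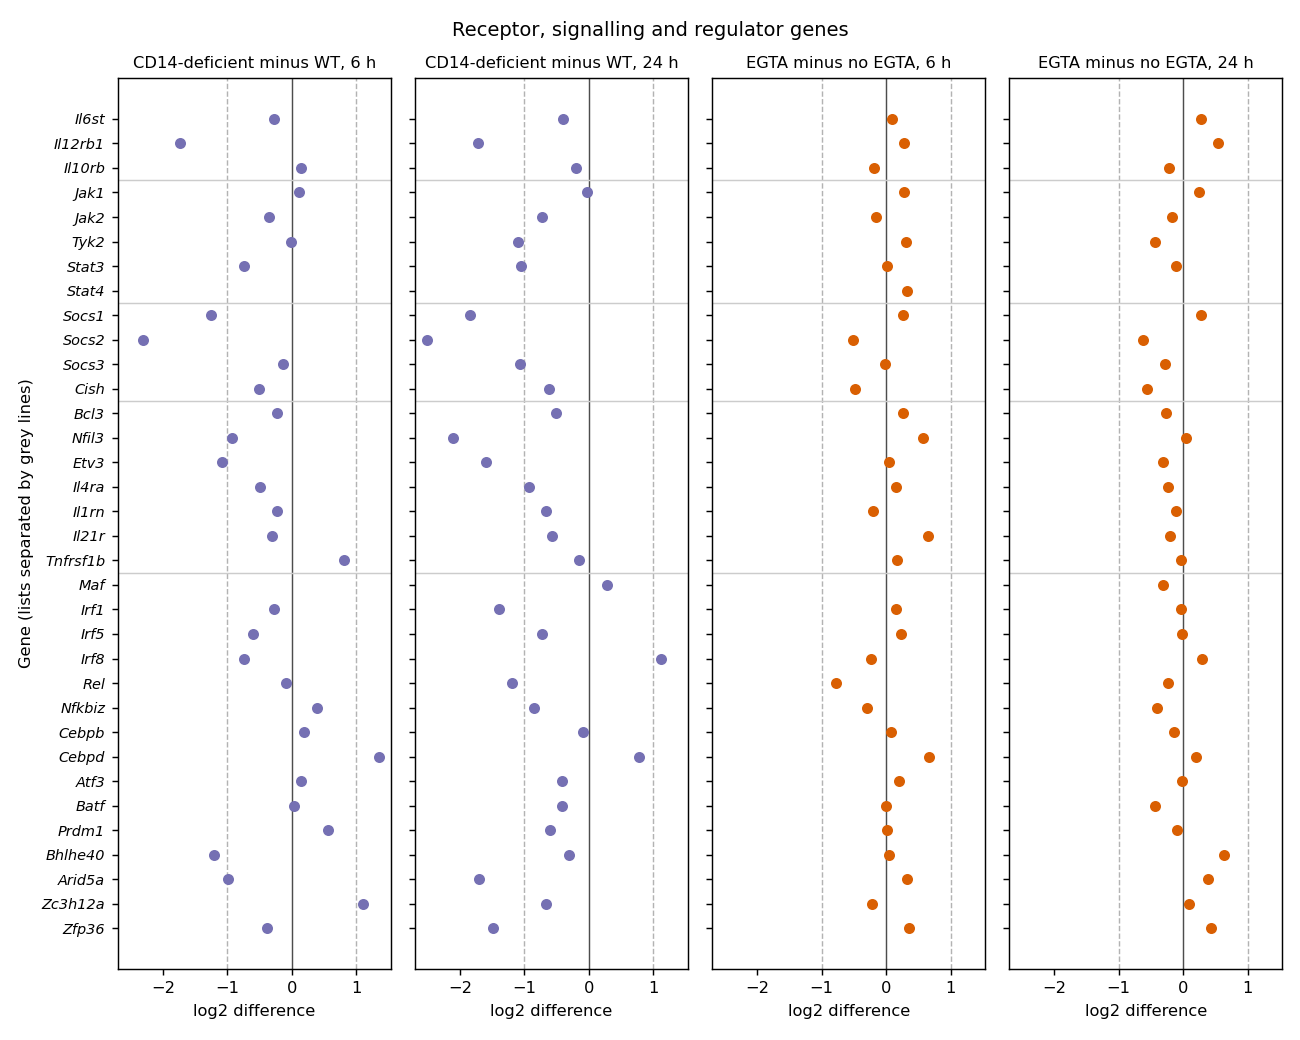
Log2 difference (x) of receptor, JAK and STAT, SOCS, IL-10 and STAT3 responsive and regulator genes (rows, in that order) between CD14-deficient and wild-type arrays (purple) and between arrays with and without EGTA (orange) at 6 and 24 h of LPS. Dashed lines mark 2-fold, and genes too dim to be compared have no point. Points with EGTA lie within 2-fold, as do most genes, since only 0.816% of all genes at 6 h and 2.13% at 24 h were 2-fold different. In CD14-deficient cells Socs2 lay at -2.31 at 6 h and -2.51 at 24 h.

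The genes most like each member over the 8 arrays were found by Pearson's r of log2 intensities among 3886 genes that ranged over at least 1 log2 unit. These arrays share 2 genotypes and 1 LPS time course, so high values are easily reached. For Il6 they were Sdc4, Mir155hg and Hcar2, all at 0.99. For Il10 they were Crybg1, Jarid2 and Gfpt1, all at 0.99. For Il12b they were Eif6 (0.98), Hif1a (0.97) and Gramd1a (0.97), for Ebi3 Atp6v0a2, Gbp7 and Slco3a1 (all 0.99), and for Il10ra Car13, Keap1 and Tapbpl (all 0.99). Among the members Ebi3 and Il10ra were most alike, at 0.98, and Ebi3 and Il12b least, at 0.50. Il6 and Il10 stood at 0.90 and Il10 and Il12b at 0.52.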

How the data were processed

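The authors deposited a linear intensity per probe set (22690) and array (8), from MAS5 per the submitters' processing notes. Scaling to a common target and detection calls are not given in the sources used here. Deposited trimmed means differed by up to 1.68 times, so the arrays were quantile normalized, so a real change common to most genes would be lost. The normalized intensities were then floored at the 40th percentile and put on a log2 scale, which the deposited values were not. Gene names came from the platform annotation and were brought up to date by RefSeq gene identifier (20364 of 20393 single-gene probe sets matched). The brightest probe set on average represents a gene, and every member probe set was examined. Log2 differences were computed in 14 comparisons of 1 array with 1 array, with 2-fold as the threshold and no test. Named genes were the members, up to 2 or 3 largest 2-fold differences per list and comparison, and 3 pattern neighbours per member. Members, lists and rules were chosen with earlier results of these data known. The procedure was tested on simulated data. Alternatives were other scalings, floors, filters, thresholds and the mean of all probe sets. Python 3.11.15, numpy 2.4.6 and pandas 2.3.3 were used.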

Additional observations from a re-analysis of the deposited data

Results flagged for a closer look

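Il6 differed between CD14-deficient and wild-type cells in opposite directions at the 2 times of LPS. The log2 difference was 0.71 at 6 h and -2.64 at 24 h, each from 1 array against 1 array. The difference between these effects was not tested. As deposited the 2 values were 0.37 and -2.22, and with equal medians 0.61 and -2.73.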

How the results depend on the processing

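No paired analysis was possible because each group had 1 array. Counts of members at least 2-fold different moved by over 1.5 times in these settings. With a 3-fold threshold they were 3 at 6 h and 2 at 24 h of LPS in wild type, 3 and 2 with LPS and EGTA, 0 for EGTA at 24 h, 1 for CD14 deficiency at 6 h, and 1 each for 24 h against 6 h with EGTA and in wild type. With a 1.5-fold threshold they were 1 for EGTA at 6 h (Il6) and 3 for CD14 deficiency without LPS. With the floor at the 60th percentile they were 3 at 6 h with LPS and EGTA and 3 in wild type, 1 at 24 h in CD14-deficient cells and 1 for 24 h against 6 h in wild type, since the higher floor shortens every difference from a dim array. Comparing only genes above the 60th percentile left 3 at 24 h of LPS in CD14-deficient cells. As deposited there was 1 for EGTA at 6 h (Il6) and 1 for CD14 deficiency at 6 h (Il10). With equal medians there was 1 for CD14 deficiency without LPS (Il10) and 1 for 24 h against 6 h in wild type (Il12b). The other counts, taken over both directions together, stayed within 1.5 times under each alternative run. By direction, LPS with EGTA at 6 h gave 3 higher and 1 lower (Il6ra) as deposited in place of 5 and 0. LPS alone at 6 h gave 1 lower (Il6ra) in each genotype as deposited. These Il6ra calls came from its other probe set, which stood for the gene in that setting. In wild type it went from 103 to 51.0 as deposited, and the first probe set from 82.6 to 69.6. CD14 deficiency at 24 h gave 0 higher in place of 1 with the floor at the 60th percentile. CD14 deficiency at 6 h gave 2 higher in place of 1, and 24 h against 6 h with EGTA 1 higher in place of 0, at the 1.5-fold threshold. No member that was 2-fold different changed sign under the scalings, floors, the unfiltered set or the mean of probe sets. As deposited, 14 of 68 member differences moved by over 1.5 times, with equal medians 0 of 71, and with the floors at the 20th and 60th percentiles 10 and 26 of 71. As deposited, EGTA at 6 h gave 2 higher and 1353 lower genes in place of 37 and 18, CD14 deficiency at 24 h 1089 and 215 in place of 357 and 425, and at 6 h 99 and 447 in place of 171 and 208. LPS in wild type at 24 h gave 365 and 2199 as deposited in place of 740 and 742. The scanner images and detection calls are not used here, so how far dim values lie above background is unknown.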
